A study of Mus musculus with 23 samples.

Results

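The microRNAs named miR-297, miR-466, miR-467 and miR-669 are made in the mouse from a dense array of hairpins inside 1 intron of Sfmbt2, a gene of the Polycomb group. Members were taken by name: all mature entries of the 4 deposited count tables that carry 1 of these names, with any letter or arm. These are 72 of 1200 mature entries (1256 entries with precursors), of which 6 are miR-297, 30 miR-466, 13 miR-467 and 23 miR-669. By arm, 32 are 5p, 30 are 3p and 10 carry no arm in their name. Near-identical members share their counts, and the 72 entries hold 63 distinct profiles.

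A microRNA hairpin is cut by Drosha and Dicer into a duplex, and 1 strand, from the 5′ (5p) or the 3′ (3p) side, is kept by an Argonaute protein and guides it to target messages, mainly through its seed (bases 2 to 8). Sfmbt2 is imprinted and expressed from the paternal allele in early embryos and placenta. The cluster arose in the rodent lineage by repeated duplication and is best known from embryonic stem cells and placenta.

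The libraries are 23 small RNA libraries of mouse lymphocytes in 6 groups, from a study of microRNAs in innate lymphoid cells of group 2 (ILC2) and of T helper 2 cells (Th2), the lymphocytes of allergic responses. Wild-type lung gave ILC2 sorted as CD45+Thy1+lin-CD4-CD25+ST2+, either untreated (lung ILC2, n = 4), after 500 ng IL-33 by oropharyngeal aspiration over 3 days (IL-33 ILC2, n = 4), or after culture for 10 days in IL-33, IL-7 and TSLP (10 ng/ml) (cultured ILC2, n = 4). Wild-type spleen and lymph nodes gave CD4+CD62LhiCD44loCD25-CD69- cells (CD4 T cells, n = 4), a phenotype of naive cells, and CD4+ cells selected on beads and grown for 5 days with anti-CD3, anti-CD28, IL-4 at 500 U/ml and anti-IFNg at 10 µg/ml (cultured Th2, n = 4). Lungs of Il4tm1LKy mice, whose 4get reporter marks cells that transcribe Il4, gave CD45+CD11c-CD11b-CD4+CD3+4get+ cells after OVA with alum over 3 weeks and airway OVA for 3 days, 50 µg each (OVA-lung Th2, n = 3). OVA-lung Th2 thus differ from every other group in genotype as well as in treatment. Libraries are numbered 1 to 4 by the count table that holds them, so equal numbers share a table, and OVA-lung Th2 has no library 4.

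Library totals ran from 84911 to 28371902 counts, and 3 libraries held under 100000: lung ILC2 library 3, IL-33 ILC2 library 2 and OVA-lung Th2 library 3. The blood cell microRNA miR-142a was found in every library, at 0.152% to 12.5% of counts. Of the markers of other cells, endothelial miR-126a held 0.878% ± 0.943 (SD, n = 4) of lung ILC2 counts and 0.00894% ± 0.0153 (SD, n = 4) of CD4 T cell counts. Mesenchymal miR-143, miR-145a, miR-199a and miR-199b together held 0.674% ± 0.335 (SD, n = 4) and 0.00642% ± 0.0059 (SD, n = 4). Epithelial markers held 0% to 0.138% in lung ILC2 and 0.0263% to 0.0939% in CD4 T cells. In OVA-lung Th2 the highest library had 0.711% for mesenchymal, 0.51% for erythroid, 0.57% for striated muscle, 0.113% for myeloid and 0.053% for liver markers. In CD4 T cells the highest values were, in the same order, 0.0128%, 0.233%, 0.000537%, 0.072% and 0.0475%. Erythroid markers reached 1.01% in lung ILC2. The part of these other cells in the results below was not tested. Nothing in the labels ties the libraries of a group to different mice, and the p-values cover the spread among these libraries alone, which may be technical.

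In the GRCm38 (mm10) annotation of RefSeq, Sfmbt2 lies at chr2:10370440-10595253, plus strand. Of 82 hairpins with these 4 numbers, 72 lie within it, from chr2:10466663 to chr2:10518279, a stretch of 51.6 kb with a median gap of 209 bases between neighbours. All 72 are intronic: they fall in a single intron, chr2:10461473-10523944, which is intron 10 of one annotated transcript and intron 11 of another (each with 23 exons). The hairpin names recur, with 12 copies of miR-669a, 10 of miR-467a and 8 of miR-466b. Counts of such a name cannot be assigned to 1 copy.

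By stem name, 59 of the 72 members have hairpins in the intron and nowhere else in that annotation, and they carry 97.4% of all member counts. A further 5 entries (both arms of miR-297a, with miR-466f, miR-466f-5p and miR-466f-3p) also have a copy on chromosome 7 or 13 and carry 2.41%. The remaining 8 members have hairpins only on other chromosomes and carry 0.188%. By name, the members counted here are therefore almost wholly those of the intron. Where their reads map was not tested.

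Mature sequences were at hand in RefSeq (GRCm38.p6) for 8 members, the 8 whose hairpins lie elsewhere. They are of miR-466, miR-467 and miR-669, none of miR-297, and are shown for their own repeats, not because they carry the counts; no sequence of a member that lies in the intron was read. Capitals mark the seed (bases 2 to 8), and the lines are 5′ to 3′. The 4 shown are the best counted miR-466 entry without an arm, the miR-466 entry of the 3p arm, and the best counted miR-467 and miR-669 entries among the 8.
miR-466k (chr3:85467396-85467418, plus strand): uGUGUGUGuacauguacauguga
miR-466i-3p (chr13:17747552-17747573, plus strand): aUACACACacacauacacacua
miR-467h (chr9:115381898-115381919, plus strand): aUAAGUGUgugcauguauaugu
miR-669n (chr3:115979905-115979924, plus strand): aUUUGUGUguggaugugugu
UG repeats make up much of miR-466k, miR-467h and miR-669n, and CA repeats much of miR-466i-3p. Among the 8 sequences, 50.0% to 79.0% of neighbouring base pairs along the strand were UG, GU, CA or AC, with a median of 69.9%. Over the 1679 mature names of the table the median was 28.6% and the 90th percentile 42.9%. The 8 members had 8 distinct seeds, so none could be grouped by seed. Counts that are not whole numbers, as shared reads give, were common: 44.8% of member values above 0 were fractional, against 9.98% of all values above 0.

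CD4 T cells held more of the cluster than any other group. Its members took 1.32% ± 0.875 (SD, n = 4) of the counts of a CD4 T cell library, against 0.0742% to 0.136% as the group means elsewhere. By library the CD4 T cell shares were 2.56%, 1.31%, 0.659% and 0.759% in libraries 1 to 4. The lowest of these lay above the highest value in the 19 other libraries, 0.297%, so the groups did not overlap. In sorted cells taken in bulk, fewer cells with a microRNA and less of it per cell cannot be told apart.

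Lung ILC2 libraries held 0.257%, 0.147%, 0.00467% and 0.0407% (mean 0.112% ± 0.114, SD, n = 4), with only 4 counts in library 3 and a mean of 0.064% without library 1. IL-33 ILC2 held 0.116%, 0.239%, 0.0891% and 0.0528% (mean 0.124% ± 0.0806, SD, n = 4). Cultured ILC2 held 0.116%, 0.137%, 0.0376% and 0.00601% (mean 0.0742% ± 0.0624, SD, n = 4). The 3 ILC2 groups overlapped over most of their range. OVA-lung Th2 held 0.179%, 0.194% and 0.0271% (mean 0.133% ± 0.0923, SD, n = 3), the last from 23 counts, and cultured Th2 held 0.164%, 0.297%, 0.0552% and 0.0297% (mean 0.136% ± 0.122, SD, n = 4; 0.0831% without library 2). No neighbours in the order of these 5 group means differed by more than their SD.

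**Figure D1:**
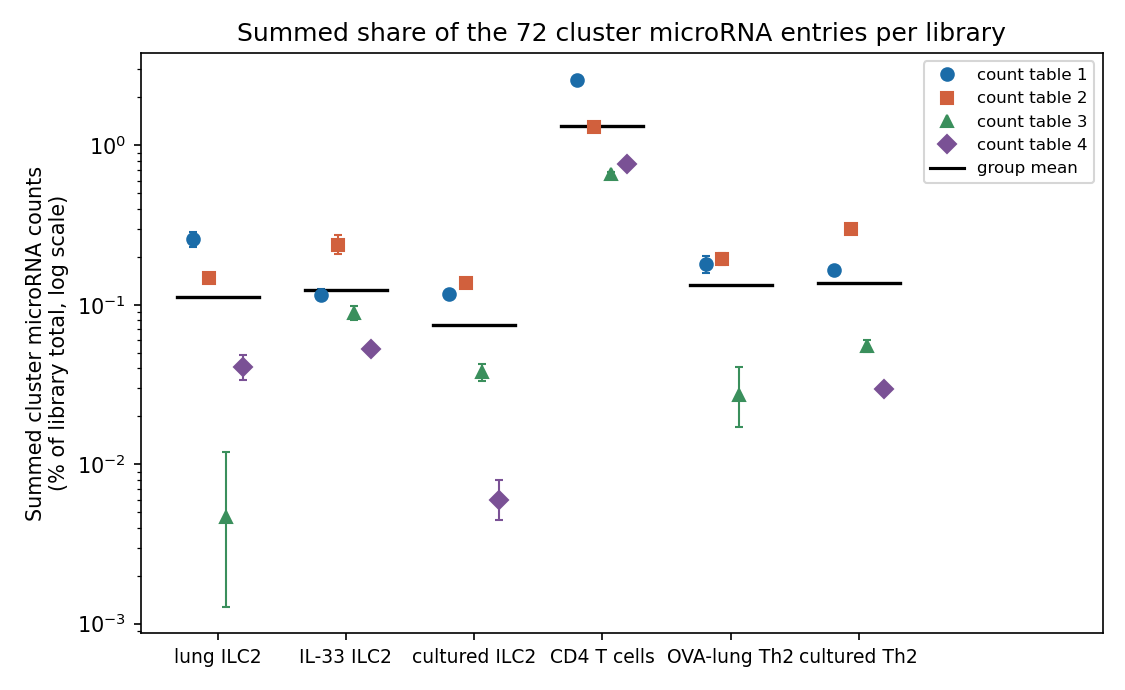
Summed counts of the 72 cluster entries as a percent of each library's total (log scale), by group; marker shape and colour give the count table, bars the exact 95% binomial interval (counting error only) and black lines the group means. All 4 CD4 T cell libraries (0.659% to 2.56%) sit above the 19 others (0.00467% to 0.297%), and libraries 3 and 4 lie low in most groups.

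Among libraries of the same number the CD4 T cell library had the highest share, in 19 of 19 pairs with another group. Folds of CD4 T cells over the other library ran from 8.93 to 141.2 for lung ILC2, from 5.49 to 22.1 for IL-33 ILC2 and from 9.58 to 126.4 for cultured ILC2. For OVA-lung Th2 they ran from 6.75 to 24.3 and for cultured Th2 from 4.42 to 25.6. The 5 sets of pairs share the same CD4 T cell libraries. Lung ILC2 and CD4 T cells also differ in organ, and the effects of tissue and lineage cannot be told apart there. OVA-lung Th2 and CD4 T cells differ in organ and genotype as well as in activation, and these cannot be told apart either.

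The share depends on what else fills the library. The most abundant microRNA, miR-21a-5p, which is known to rise in activated lymphocytes, held 2.16% to 9.26% of CD4 T cell counts and 1.69% to 82.2% elsewhere. As a share of all other counts, the members held 0.692% to 2.63% in CD4 T cells and 0.0049% to 0.467% elsewhere. The groups still did not overlap. The mean of OVA-lung Th2 then rose to 0.23% ± 0.153 (SD, n = 3) and that of cultured Th2 to 0.245% ± 0.155 (SD, n = 4).

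The miR-467 and miR-669 subfamilies made up most of the cluster in CD4 T cells, at 46.3% and 45.7% of member counts. The miR-466 subfamily held 6.92% and miR-297 held 1.08%. The miR-467 share was 0.622% ± 0.617 (SD, n = 4) of all counts in CD4 T cells and 0.0261% to 0.0582% as the other group means. CD4 T cell library 1 held 1.47%, and without it the mean was 0.34% ± 0.304 (SD, n = 3). Among the other group means of this subfamily, that of lung ILC2 fell from 0.0567% to 0.0154% without library 1, that of OVA-lung Th2 from 0.0411% to 0.0164% without library 2 and that of cultured Th2 from 0.0581% to 0.031% without library 2. For miR-669 the share was 0.607% ± 0.315 (SD, n = 4) against 0.0348% to 0.0553%, where IL-33 ILC2 fell from 0.0485% to 0.0305% without library 2. The miR-467 and miR-669 shares were below the CD4 T cell library of the same number in 19 of 19 pairs.

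The miR-466 subfamily held 0.0797% ± 0.0646 (SD, n = 4) of CD4 T cell counts and, in OVA-lung Th2, 0.0491% ± 0.0305 (SD, n = 3). Without CD4 T cell library 2 the former mean was 0.0489%, and without OVA-lung Th2 library 1 the latter was 0.0317%. It made up 30.3% of member counts pooled over OVA-lung Th2 (51.0% without library 2), against 6.37% to 15.5% in the other groups. By library the groups overlapped. OVA-lung Th2 libraries 1 to 3 had 46.9%, 18.75% and 100%, the last from 23 counts. Cultured ILC2 library 3 had 34.0% and cultured Th2 library 3 had 19.8%. Among libraries 1 the miR-466 share of all counts was higher in OVA-lung Th2 than in CD4 T cells (0.0839% against 0.0702%), the only such pair of 19. For miR-297 the exception of 19 pairs was IL-33 ILC2 library 3 (0.0195% against 0.0173%).

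Single members followed the sum less uniformly. The group mean was highest in CD4 T cells for 50 of the 72 members (43 profiles), where 17.1% of the 1052 mature entries with any count had their highest mean there. It was highest in cultured Th2 for 9, in OVA-lung Th2 for 7 and in each ILC2 group for 2. Every CD4 T cell library lay above every lung ILC2 library for 6 members (background 1.05%), and above every OVA-lung Th2 library for 5 (background 1.71%). The counts were 3 against IL-33 ILC2 (background 1.33%), 4 against cultured ILC2 (background 1.52%) and 2 against cultured Th2 (background 1.71%). With most members near 0 in shallow libraries, the values below were taken as CPM, counts scaled to the same library total.

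miR-669c-5p, from a single hairpin at chr2:10509296-10509404, was the most abundant member. In CD4 T cells it was measured at 6073, 1943, 1420 and 6489 CPM. Lung ILC2 had 372, 452, 0 and 369 CPM, IL-33 ILC2 79.3, 747, 248 and 387 CPM, and cultured ILC2 226, 192, 98.4 and 1.2 CPM. OVA-lung Th2 had 0, 95.5 and 0 CPM and cultured Th2 47.2, 354, 159 and 230 CPM. The lowest CD4 T cell value was above the highest of all 19 others, which held for 1 of the 72 members and for 2 of the 1052 mature entries (0.19%); the other was miR-150-3p, from a microRNA known to be high in resting lymphocytes.

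Taken entry by entry, miR-467e-5p, from a hairpin at chr2:10505721-10505807, was the second most abundant but varied more between libraries. CD4 T cell libraries had 6068, 1135, 140 and 54.1 CPM. Lung ILC2 had 779, 121, 0 and 0 CPM, so the groups overlapped. At every library number, however, the CD4 T cell library was the highest (19 of 19 pairs).

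miR-467a-5p and miR-467b-5p were almost the same in every library, so they are not independent and stand here for 1 measurement. miR-467a-5p had 2846, 1768, 1244 and 170 CPM in CD4 T cells. In lung ILC2 it had 273, 74.3, 23.3 and 0 CPM, in IL-33 ILC2 65.4, 279, 107 and 26.3 CPM and in cultured ILC2 52.5, 145.6, 41.5 and 6.01 CPM. OVA-lung Th2 had 0, 211 and 0 CPM and cultured Th2 71.9, 440, 52.7 and 3.52 CPM. CD4 T cell library 4 lay within the range of the other groups, but above library 4 of each of them.

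Lower down the order, miR-467d-5p had 1445, 776, 297.1 and 45.9 CPM in CD4 T cells and miR-467c-5p 1535, 671, 92.3 and 24.5 CPM. Each entry of the joint profile miR-669a-5p/miR-669p-5p had 1127, 271, 154 and 19.8 CPM there. miR-669l-5p had 459, 184, 144.1 and 28.9 CPM, and miR-669o-5p 565, 161, 113 and 27.7 CPM. CD4 T cell library 1 was highest and library 4 lowest for each of these.

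The best counted 3p entry was the joint profile miR-669a-3p/miR-669o-3p, with 43.9, 631, 369 and 89.9 CPM per entry in CD4 T cells. Its order over the libraries was thus not that of the 5p entries: library 2 was highest and library 1 lowest. Taken entry by entry, the miR-466 subfamily was led by miR-466c-5p at 204.8, 226, 58.5 and 21.4 CPM and, among 3p entries, by miR-466d-3p at 30.3, 253, 7.13 and 51.7 CPM. Their means in CD4 T cells were 127.6 and 85.4 CPM. The equal entries miR-466b-3p, miR-466c-3p and miR-466p-3p had a mean of 51.8 CPM each there, and added together would stand above both. miR-467a-3p had 0, 224, 90 and 21.4 CPM. miR-297a-5p led its subfamily with 87.8, 72, 173 and 20.1 CPM, and the joint profile miR-297a-3p/miR-297b-3p/miR-297c-3p was at 0, 37, 0 and 4.82 CPM per entry.

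**Figure D2:**
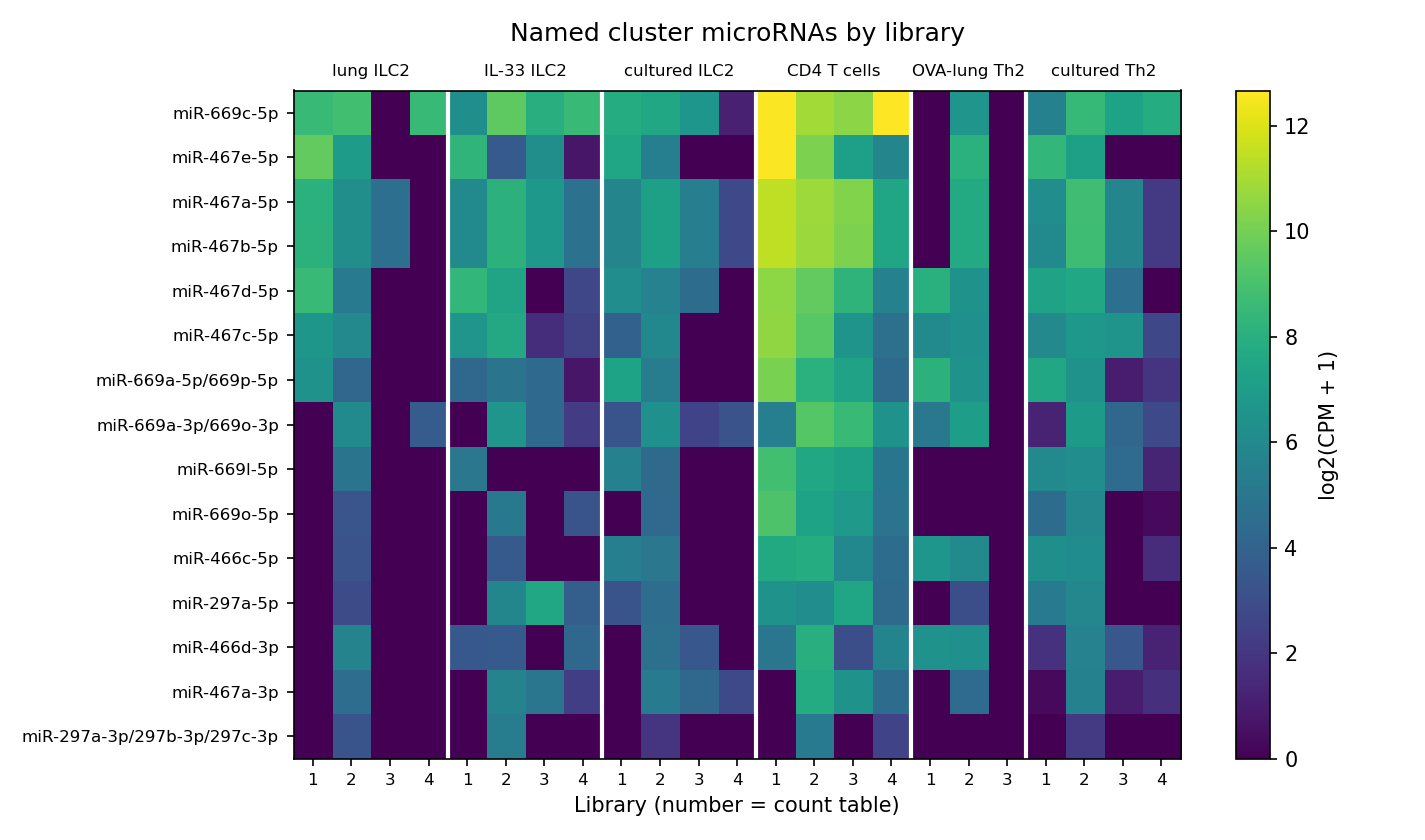
Levels of the named cluster microRNAs as log2(CPM + 1), 1 column per library grouped by population and numbered by count table. Equal profiles are in 1 row, at the level of 1 of their entries. The brightest cell of the row lies in a CD4 T cell column for 13 of the 15 rows, but CD4 T cell libraries differ among themselves, and only for miR-669c-5p (1420 to 6489 CPM there) are all 4 above every other library.

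Tests were made with edgeR over 384 microRNAs that passed a filter on low counts. Of the 72 members 36 passed (30 profiles, 22 of them 5p entries, 13 3p and 1 without an arm), with 97.5% of the member counts. The other 36 have values but no test. Since many pass through their level in CD4 T cells, neither the number below 0 among them nor their median change supports a difference, and both are given as descriptions. The fit without a replicate block is the main one, and a second fit, blocked on the library number, stands beside it where calls differ.

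For lung ILC2 against CD4 T cells, the first of the contrasts of the study, 14 members were lower when the block was in the fit, and none without it. The 14 entries, 12 profiles, are 9 profiles of miR-467 and miR-669 (the 5p entries of miR-467b, miR-467a, miR-467c, miR-467d, miR-467e, miR-669a/miR-669p, miR-669c, miR-669l and miR-669o), miR-466c-5p, miR-297a-5p and miR-669a-3p/miR-669o-3p. In that fit 8.85% of all 384 microRNAs were called lower. Without the block 0 of 36 were called, 0.26% of all microRNAs were called lower, 14 members had an unadjusted p below 0.05 and DESeq2 called 7 (3.12% of all called lower). The median log2 change of the tested members was −4.40, against −0.84 over all 384. With no filter it was −3.87 over the 72 members, against 0 over 1092 microRNAs.

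The scaling moved the whole set of microRNAs: in the same contrast the median of all 384 was −0.13 with DESeq2 size factors and 0 with library totals. Relative to that median the 36 members that passed the filter stood at −3.56, −3.76 and −3.63 under the 3 scalings, a description with the same limit. With the block and either of the other scalings 5 members were called. The members' changes below are on the TMM scale.

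miR-669c-5p fell by 4.86 ± 1.24 (SE) on the log2 scale in lung ILC2 (adjusted p = 0.00814 with the block, 0.136 without). miR-467a-5p fell by 5.36 ± 1.36 (SE, adjusted p = 0.00814 with the block, 0.176 without) and miR-467e-5p by 5.42 ± 1.62 (SE, adjusted p = 0.0226 with the block, 0.405 without). For miR-669o-5p the value was −8.75 ± 2.33 (SE, adjusted p = 0.0102 with the block), with 0, 9.2, 0 and 0 CPM in lung ILC2. The calls of miR-669o-5p, miR-669c-5p, miR-467b-5p and miR-467a-5p held with each of the 8 libraries left out in turn. The number of members called with the block went to 5 without lung ILC2 library 3, to 4 without lung ILC2 library 4 and to 8 without lung ILC2 library 1. Neither miR-466d-3p (−4.14 ± 1.91, adjusted p = 0.15) nor miR-467a-3p (−4.75 ± 1.97, adjusted p = 0.103) passed with the block.

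**Figure D3:**
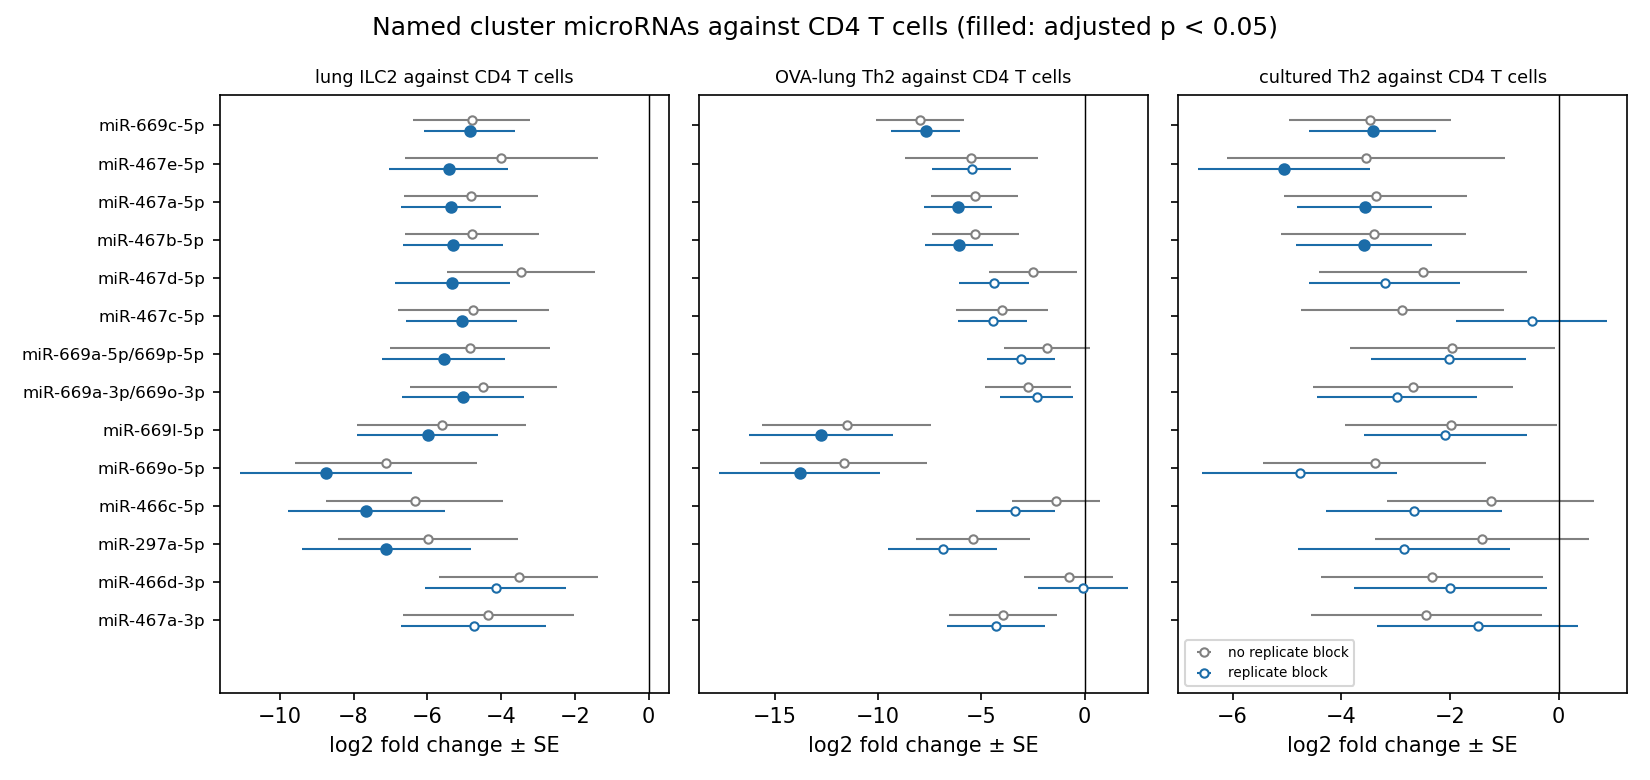
Log2 fold changes (dots) with standard errors derived from the F-test (bars) of the named cluster microRNAs that were tested. The 3 comparisons are with CD4 T cells, without (grey) and with (blue) the replicate block. Filled dots have an adjusted p below 0.05. Every filled dot is blue and lies below 0, and the values without the block lie on the same side.

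In OVA-lung Th2, the lung Th2 cells of allergic mice, 5 members were lower than in CD4 T cells with the block: miR-669c-5p, miR-669l-5p, miR-669o-5p, miR-467b-5p and its near copy miR-467a-5p. In that fit 3.39% of all microRNAs were called lower. Without the block edgeR called 0 of 36 (0% of all called lower), with 9 at an unadjusted p below 0.05, and DESeq2 called 4 (2.34% of all called lower). The median change of the tested members was −3.35, against −0.66 over all, and −2.63 with the 6 members at 0 in OVA-lung Th2 set to their bound. miR-669c-5p fell by 7.69 ± 1.67 (SE, adjusted p = 0.00485 with the block, 0.0792 without), and its call held without each library in turn. miR-467a-5p fell by 6.11 ± 1.65 (SE, adjusted p = 0.0225 with the block), where OVA-lung Th2 library 2 alone had counts.

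miR-669l-5p and miR-669o-5p were at 0 in all 3 OVA-lung Th2 libraries, so their fitted changes are no bounds. Against a floor of 3 counts over the group (5.89 CPM), miR-669l-5p was at least 34.6-fold lower and miR-669o-5p at least 36.8-fold lower than the mean of CD4 T cells. CD4 T cell library 1 carries much of that mean, and without it the bounds were 20.2-fold and 17.1-fold. Without OVA-lung Th2 library 1, or without library 3, only 1 member was called with the block, miR-669c-5p. By contrast miR-466d-3p had 87.4, 80.8 and 0 CPM in OVA-lung Th2, overlapping CD4 T cells (change −0.09 ± 2.17, SE, adjusted p = 0.989 with the block).

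Cultured Th2, which are grown from CD4+ cells of the same organs, had 4 members lower than CD4 T cells with the block: miR-467e-5p, miR-669c-5p and the near copies miR-467b-5p and miR-467a-5p, where 4.69% of all microRNAs were called lower. miR-467e-5p fell by 5.05 ± 1.58 (SE, adjusted p = 0.0343) and miR-669c-5p by 3.42 ± 1.17 (SE, adjusted p = 0.0473). Without the block 0 of 36 were called (0.521% of all called lower), 2 had an unadjusted p below 0.05, and DESeq2 called 0. The median was −2.43 against 0.02 over all. Leaving out libraries changed this: 0 to 2 members were called with the block when 1 was left out, with 0 without CD4 T cell library 1 or 4 or cultured Th2 library 2, 3 or 4. Without CD4 T cell library 2 it was 2, and without CD4 T cell library 3 or cultured Th2 library 1 it was 1.

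Among ILC2 no member was called after IL-33 or in culture. In IL-33 ILC2 against lung ILC2, the summed share was higher at 3 of 4 library numbers, with log2 differences of −1.15, 0.70, 4.25 and 0.38, where 4.25 is against the 4 counts of lung ILC2 library 3. edgeR called 0 of 36 members with and without the block (0.521% and 0% of all called), DESeq2 called 0, and 2 had an unadjusted p below 0.05 in each edgeR fit. The members' median was 0.41 against 0.23 over all with TMM and −0.31 against −0.39 with library totals, so no direction was fixed. miR-297a-5p had 0, 55.8, 195 and 13.5 CPM in IL-33 ILC2 and 0, 6.37, 0 and 0 CPM in lung ILC2. In cultured against lung ILC2 the summed share was lower at 3 of 4 library numbers (log2 differences −1.15, −0.10, 3.01 and −2.76). With miR-21a-5p left out of the totals the differences were −1.09, 0.26, 3.68 and −1.52, lower at 2 of 4, so the direction was not fixed here either. edgeR again called 0 of 36 with and without the block (4.43% and 0.26% of all called) and DESeq2 called 0, with 1 member at an unadjusted p below 0.05 in each edgeR fit.

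The activated lineages were also set side by side. In IL-33 ILC2 against OVA-lung Th2 the log2 differences of the summed share were −0.63, 0.30 and 1.72 in libraries 1 to 3. With miR-21a-5p left out they were −1.57, −0.10 and 1.05, so the sign at library 2 turned. edgeR called 0 of 36 with and without the block (4.43% and 0% of all called), 7 had an unadjusted p below 0.05 in each, and DESeq2 called 0. This count moved with single libraries: 7 members were called with the block without OVA-lung Th2 library 2, and 3 without library 1.

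In culture the ILC2 library held less of the cluster than the Th2 library at all 4 library numbers, with log2 differences of −0.50, −1.12, −0.55 and −2.30. Only miR-467c-5p was called, with the block, with 14.1, 59.8, 0 and 0 CPM in cultured ILC2 and 61.5, 107, 94.4 and 5.78 CPM in cultured Th2. It was lower by −5.11 ± 1.596 on the log2 scale (SE, adjusted p = 0.0344 with the block, 0.646 without), where 5.47% of all microRNAs were called lower. The call was lost without cultured ILC2 library 1, 3 or 4 or cultured Th2 library 3 or 4. Without the block edgeR called 0 of 36 (0% of all called lower), with 0 at an unadjusted p below 0.05, and DESeq2 called 0.

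The change with activation was compared between lineages as (OVA-lung Th2 minus CD4 T cells) minus (IL-33 ILC2 minus lung ILC2). The Th2 side also changes organ and genotype, while the ILC2 side stays in wild-type lung. Effects of activation, organ and genotype therefore cannot be told apart in this contrast. With the block 5 members were more negative on the Th2 side: miR-297a-5p, miR-669c-5p, miR-669o-5p, miR-467b-5p and its near copy miR-467a-5p, where 2.6% of all microRNAs were called lower. For miR-669c-5p the difference of changes was −8.91 ± 1.96 (SE, adjusted p = 0.00767 with the block, 0.0726 without). Without the block edgeR called 0 of 36 (0% of all called lower), 8 had an unadjusted p below 0.05, and DESeq2 called 1 (0.781% of all called lower). Only 1 member was called with the block without OVA-lung Th2 library 1 or 3. The same difference in culture gave 0 calls in both edgeR fits (1.3% of all called with the block and 0% without) and in DESeq2, with 1 and 9 members at an unadjusted p below 0.05 without and with the block.

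The 5p arm held 90% of all member counts pooled over libraries, where deep libraries weigh most. By group it held 63.5% (OVA-lung Th2) to 94.4% (cultured Th2). In 20 of the 28 stems with both arms listed the 5p entry had more counts, with stems that share a profile each counted. The 5p entry held over 99% for miR-467c, miR-467e, miR-669c and miR-669l. It also held over 99% for miR-467b, miR-669p and miR-466o, but their 5p counts are shared or nearly so. They match those of miR-467a, miR-669a and miR-466b, where the 5p entry held 93.3%, 76.4% and 64.2%. The 3p entry was ahead for miR-466d, where 9% of the counts of both arms were 5p, and for miR-466n with 22.2%.

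The arm balance of the members differed between library numbers. In libraries 2 the 3p arm held 20.7% to 33.7% of the member counts with an arm in all 6 groups. In libraries 1 it held 0.698% in CD4 T cells, 1.62% in cultured Th2, 2.54% in cultured ILC2, 5.03% in IL-33 ILC2 and 0% in lung ILC2, with 34.5% in OVA-lung Th2. All other mature microRNAs had 3p shares of 21.2% to 39.4% in libraries 1 and 19.7% to 36.1% in libraries 2. In libraries 3 the members ranged from 0% to 31.6% (median 15.2%) and the other microRNAs from 14.1% to 33.9% (median 21.6%). In libraries 4 the members ranged from 5.56% to 53.3% (median 8.62%) and the others from 6.1% to 42.8% (median 19.9%), so the ranges overlapped in both. The joint profile miR-669a-3p/miR-669o-3p is an example: its 2 rows had 114 counts in CD4 T cell library 1 and 2822 in library 2, where the 2 rows of miR-669a-5p/miR-669p-5p had 2927 and 1211.

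**Figure D4:**
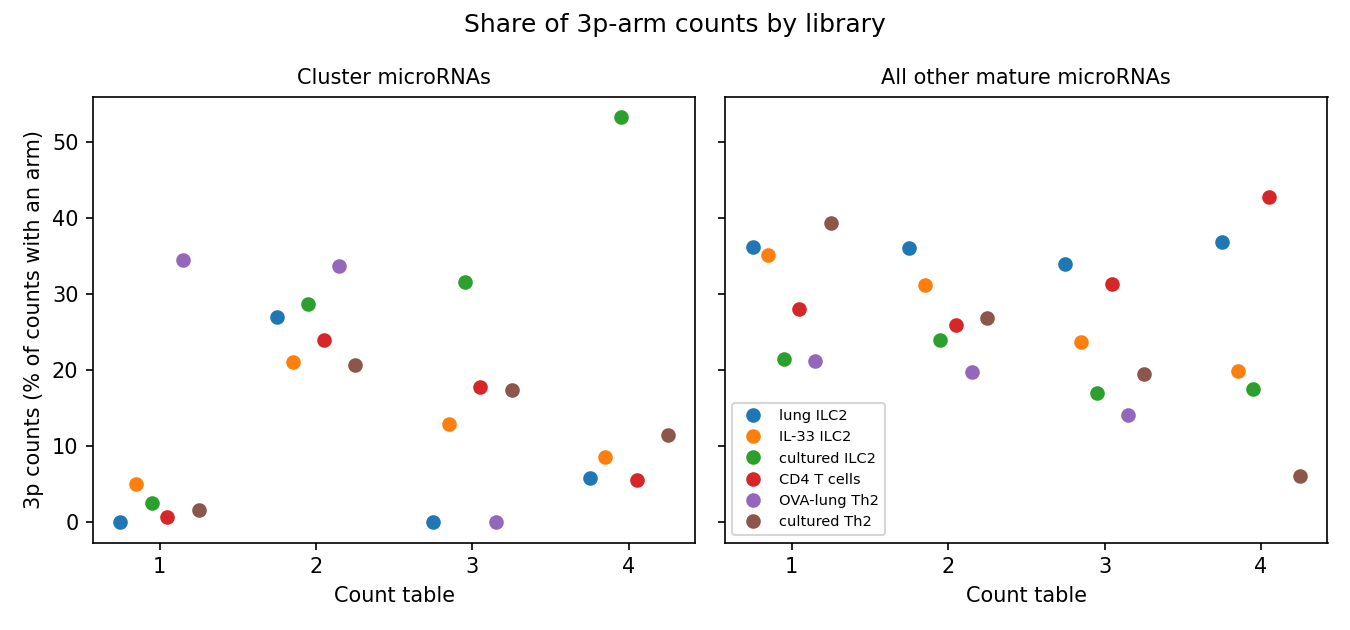
Counts of 3p entries as a percent of all counts with an arm, per library, by count table (x axis), for the cluster (left) and for all other mature microRNAs (right), coloured by group. In the cluster 5 of the 6 libraries numbered 1 lie at or below 5.03% and all 6 numbered 2 at or above 20.7%, while the other microRNAs lie between 19.7% and 39.4% at both numbers.

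The make-up of the 5p arm differed in the same way. miR-669c-5p held 85.5%, 77.6%, 73.3% and 90.8% of the member counts in the libraries 4 of CD4 T cells, cultured Th2, IL-33 ILC2 and lung ILC2. It held 2% in cultured ILC2 library 4, from 50 member counts. Over the 18 libraries numbered 1 to 3 it held 0% to 31.3%, with a median of 14.6%. The miR-467 subfamily held 6.7% of CD4 T cell member counts in library 4 and 57.3%, 50.1% and 47.2% in libraries 1 to 3. What differs between the count tables was not tested.

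Levels were also set out along the intron. Its middle stretch holds alternating hairpins of the miR-466, miR-467 and miR-669 subfamilies, where the miR-467a copies share 1591 CPM ± 1120 (SD, n = 4) in CD4 T cells. Further toward the 3′ end lie the single hairpins of miR-467e (1854 CPM ± 2853, SD, n = 4, most of it from CD4 T cell library 1) and miR-669c (3981 CPM ± 2669, SD, n = 4), the latter 30.1% of the CD4 T cell sum. Beyond miR-669c high and low names alternate, from 681 CPM for the shared name miR-669a and 499.9 CPM for miR-669o to 126.1 CPM for miR-466h, 98.8 CPM for miR-297a, 8.93 CPM for miR-669h, 2.29 CPM for miR-669m and 0.671 CPM for miR-466l, with no steady fall. The value of miR-669o includes 283.5 CPM of its 3p entry. That entry has the profile of miR-669a-3p, with equal and in part fractional counts, as reads split between entries give. The values of miR-669a and miR-669o are therefore not independent. miR-669o-5p alone had 216.4 CPM.

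**Figure D5:**
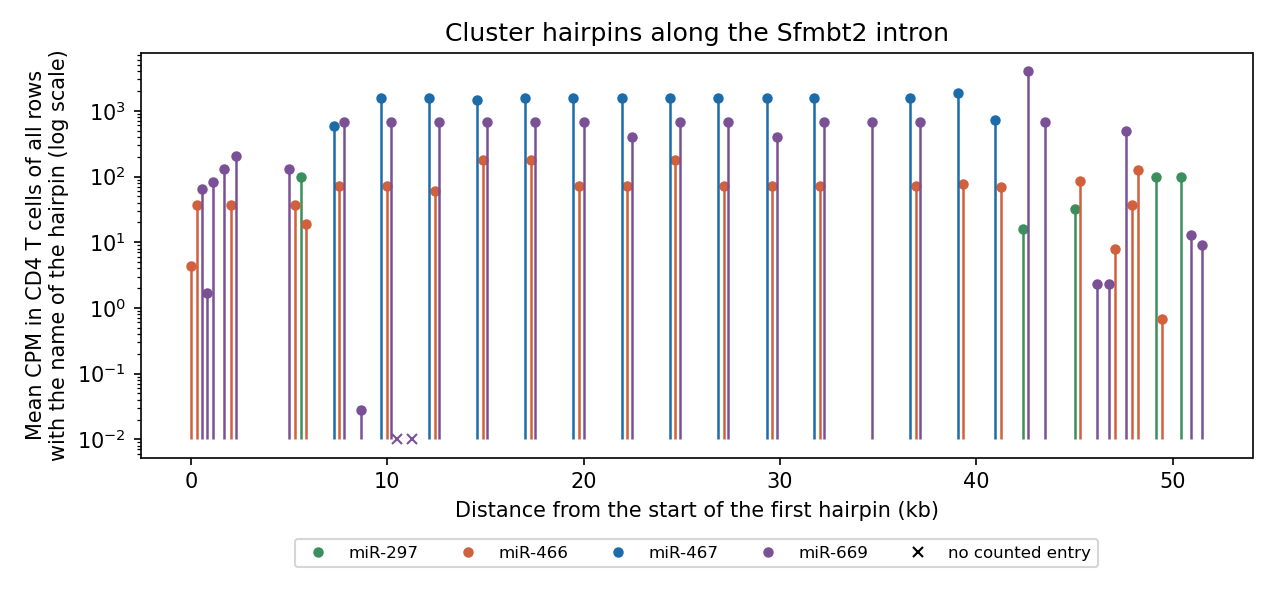
Hairpins of the cluster by distance in kb from the start of the first hairpin (x axis), with the mean CPM in CD4 T cells of all entries that carry the name of the hairpin (y axis, log scale); copies of 1 name show the same value, since their counts cannot be separated, and crosses mark hairpins with no counted entry. Names that share a profile each hold an equal part of its counts, so their values are not independent. The highest value, 3981 CPM, belongs to miR-669c near the 3′ end.

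Outside the cluster, the tested microRNAs whose log2 CPM ranked most like the summed members over the 23 libraries were miR-128-3p (Spearman rho 0.79), miR-15b-5p (0.75), miR-874-3p (0.74), miR-378a-5p (0.71) and miR-423-5p (0.70). The points share depth, count table and group, so these values are a description. Of the 5, miR-128-3p, miR-15b-5p and miR-378a-5p had their highest group mean in CD4 T cells (1238, 3133 and 132.8 CPM), and miR-874-3p and miR-423-5p did not.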

How the data were processed

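Small RNA libraries of 23 samples were used. The authors deposited 4 tables of expected counts per microRNA, whose names give exceRpt as the pipeline; 9.98% of values above 0 are fractional and were rounded for the tests. The submitters' processing notes name mm10 as build and DESeq2 as a tool; aligner and trimming: not given in the sources used here. The tables were joined by name and an entry absent from a table was set to 0; 1 row without a name was dropped. A deposited RPM table and its group averages, 29 columns of values, were not used.

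Tests were edgeR 4.0.16 quasi-likelihood F-tests run with R 4.3.3 (scaled by TMM, filtered by filterByExpr, 1 fit of 23 libraries, Benjamini-Hochberg over 384 microRNAs, call at an adjusted p below 0.05). DESeq2 1.42.0 was an alternative, as were other scalings, no filter, merged profiles and leaving out each library. The model was tested on simulated data. CPM and shares use library totals; intervals are exact binomial at 95% and, like floors of 3 counts, cover counting error only. A fold change of a member near 0 depends on the prior count. The SE of a log2 change is its absolute value divided by the square root of the F statistic, and is unreliable near 0 counts.

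The library number was also fitted as a block, since the labels tie each number to 1 count table. Over 204 microRNAs, same-numbered libraries deviated together (correlation above 0.1 in 51 of 55 pairs, median 0.36, against −0.14 between numbers), and 22 of 23 libraries had their best correlation within their number. The coefficient of biological variation was 1.54 without and 1.13 with the block.

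Named members are the 10 most abundant profiles (each ranked by the level of 1 entry), up to 8 members with the smallest p per comparison, and the most abundant 5p and 3p entry of each subfamily. Another 5 microRNAs are named by likeness (log2 of CPM + 0.5). The members and lists were chosen with earlier results of these data known. Sequences and hairpin positions come from RefSeq, introns from GENCODE, both on GRCm38.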

Additional observations from a re-analysis of the deposited data

Results flagged for a closer look

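In 4 of 35 sets of 4 libraries (subfamilies, arms and the sum in each group of 4), 1 library stood far from the other 3. Chance gives about 1 in 20 for roughly normal values, a rate that need not hold for shares near 0, and the sets overlap. All 4 outlying libraries carry the number 2, and so share a count table. They are the miR-297 share of lung ILC2 library 2 (0.00517%, with 0% in the others), and the 3p share of lung ILC2 library 2 (0.0395%), IL-33 ILC2 library 2 (0.0502%) and cultured Th2 library 2 (0.0609%). For miR-297 the values of 0% in the others fixed the flag, whatever the size of the share in library 2.

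The change from CD4 T cells to OVA-lung Th2 differed from that of lung ILC2 to IL-33 ILC2 for 5 members with the replicate block. The Th2 side also changes organ and genotype, so activation, organ and genotype cannot be told apart. The differences, Th2 minus ILC2 on the log2 scale, were −8.91 for miR-669c-5p, −7.96 for miR-467b-5p, −8.02 for miR-467a-5p, −17.25 for miR-669o-5p and −13.92 for miR-297a-5p. miR-669o-5p had no counts in OVA-lung Th2 and miR-297a-5p counts in OVA-lung Th2 library 2 only, so the sizes of their fitted values depend on the prior count. In edgeR none of the 5 passed without the block (adjusted p 0.0726 to 0.233), while DESeq2 without a block called 1 member in this comparison. With the block only the call of miR-669c-5p held without each of the 15 libraries in turn.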

How the results depend on the processing

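Without a block no edgeR setting tried called any member in any of the 9 comparisons, leaving out libraries included; no named member that was called changed sign in any setting. DESeq2 called 7 members for lung ILC2 and 4 for OVA-lung Th2 against CD4 T cells, and 1 for the difference in vivo. The replicate block called 14, 5 and 4 for lung ILC2, OVA-lung Th2 and cultured Th2 against CD4 T cells, 1 between the cultured groups and 5 for the difference in vivo. In the same order, the block gave 5, 5, 1, 1 and 3 with DESeq2 size factors, 5, 5, 4, 0 and 5 with library totals, and 5, 6, 2, 0 and 6 with no filter. Chosen after seeing the data, the block with equal profiles merged gave 12, 5, 4, 1 and 5, and with no library under 100000 counts 6, 6, 4, 1 and 6. Leaving out 1 library, counts with the block ran from 4 to 14, from 1 to 6, from 0 to 2, from 0 to 1 and from 1 to 7, and from 0 to 7 between IL-33 ILC2 and OVA-lung Th2 (for lung ILC2, 8, 12, 5 and 4 without its libraries 1 to 4 and 13, 12, 10 and 14 without those of CD4 T cells). The cause of these moves was not tested.

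Summed shares moved by less than 1 SD in every setting except OVA-lung Th2 with miR-21a-5p left out of the total (0.23% against 0.133%). The means of lung ILC2 and cultured Th2 fell to 0.064% without lung ILC2 library 1 and to 0.0831% without cultured Th2 library 2. Leaving out 1 library, the CD4 T cell mean ran from 0.909% to 1.54%. Depth limits single members most: 3 counts are 35.3 CPM in the shallowest library and 0.106 CPM in the deepest.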

Other observations

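Precursor entries of the 4 numbers (39 rows) were nearly empty in most libraries. They held 342 counts in cultured Th2 library 1, 30.95 in CD4 T cell library 2, 17.6 in lung ILC2 library 1 and 15.2 in cultured ILC2 library 2, against 46640, 29295, 353 and 4550 counts of the mature members in the same libraries.

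2 examples, chosen after their values were seen, of members not highest in CD4 T cells follow. miR-669f-3p was at 0 in all 4 IL-33 ILC2 libraries and had a mean of 30.6 CPM in OVA-lung Th2. Each entry of miR-466b-5p/miR-466o-5p was at 0 in IL-33 ILC2 and had a mean of 35.8 CPM in OVA-lung Th2. Both examples were at 0 in OVA-lung Th2 library 1, and miR-669f-3p in library 3 as well.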
